A study of Mus musculus with 6 samples.

Results

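The 39 Hox genes of the mouse were examined for chromatin binding of CDK6, by ChIP-seq against an HA tag. They were taken by symbol (Hoxa, Hoxb, Hoxc or Hoxd followed by a number) from the 22028 protein-coding genes of the GENCODE M21 annotation. The Hoxa cluster on chromosome 6 holds 11 of them, the Hoxb cluster on chromosome 11 holds 10, the Hoxc cluster on chromosome 15 holds 9 and the Hoxd cluster on chromosome 2 holds 9. All cells were murine pre/pro-B cell lines, made from C57BL/6 bone marrow by transduction with the BCR::ABL1 p185 oncogene, and all were Cdk6-/-, so that the endogenous kinase was missing. From a retroviral plasmid the cells overexpressed either HA-tagged wildtype CDK6 (CDK6-WT, n = 2) or the HA-tagged kinase-inactive mutant (CDK6-K43M, n = 2). Comparing the variants addresses the part that kinase activity plays in chromatin binding of CDK6. The 2 input libraries of the series were not analysed here, and the labels do not say whether libraries of the same variant came from separate cultures, so the p-values measure only the spread between these libraries.

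Hox genes encode homeodomain transcription factors that give body segments their identity along the head-to-tail axis. The clusters are copies of an ancestral array, and genes with the same number in different clusters (paralogues) resemble each other most. In haematopoiesis, genes of the Hoxa and Hoxb clusters are active in stem and progenitor cells and fall silent during differentiation. Hoxa9 is a known oncogene in acute leukaemia, often together with its cofactor Meis1. Hox clusters are rich in CpG dinucleotides, and where the genes are silent the clusters are typically covered by Polycomb repressive complexes. CDK6 has no DNA-binding domain and reaches chromatin through other proteins.

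Hox promoters carried few anti-HA peaks. The promoter window of a gene covered 2000 bp before and 200 bp after each of its transcript starts. A peak lay in the promoter of 1 of the 39 Hox genes in CDK6-WT replicate 1, of 1 in CDK6-WT replicate 2, of 1 in CDK6-K43M replicate 1 and of 3 in CDK6-K43M replicate 2. Over all 22028 protein-coding genes the share with a promoter peak was 47% in CDK6-WT replicate 1, 40.1% in CDK6-WT replicate 2, 48.5% in CDK6-K43M replicate 1 and 39.4% in CDK6-K43M replicate 2. Hoxa7 was the gene found in all 4 lists, Hoxa3 and Hoxb7 had a promoter peak in CDK6-K43M replicate 2 alone, and the other 36 Hox genes (92.3%) had none in any list. The share without a promoter peak in any list was 48.2% over all protein-coding genes.

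The sites are best seen with their sequence. Peaks of the 4 lists that overlapped were merged into regions, and regions were numbered along each cluster. Outside promoters, 3 regions recurred in both replicate 2 lists, and they are the sites of the clusters, besides the Hoxa7 start, that more than 1 list contained. Their reference sequence (mm10, plus strand, the stronger summit with 100 bases on either side) is given with CpG dinucleotides in capitals.
Hoxa region 1, chr6:52211716-52211916: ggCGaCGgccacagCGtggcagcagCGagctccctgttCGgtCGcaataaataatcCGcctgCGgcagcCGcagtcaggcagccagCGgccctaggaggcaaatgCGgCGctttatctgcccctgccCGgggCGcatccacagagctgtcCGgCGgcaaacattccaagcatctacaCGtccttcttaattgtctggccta
Hoxb region 4, chr11:96311556-96311756: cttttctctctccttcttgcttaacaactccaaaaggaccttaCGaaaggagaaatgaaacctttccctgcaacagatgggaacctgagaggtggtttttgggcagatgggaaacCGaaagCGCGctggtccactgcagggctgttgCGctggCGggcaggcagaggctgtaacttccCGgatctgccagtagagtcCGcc
Hoxc region 1, chr15:102978736-102978936: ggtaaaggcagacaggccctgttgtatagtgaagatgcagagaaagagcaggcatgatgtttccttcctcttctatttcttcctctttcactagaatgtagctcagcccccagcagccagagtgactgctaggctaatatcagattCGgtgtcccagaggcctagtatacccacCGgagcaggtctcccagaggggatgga
The Hoxa sequence held 17 CpG dinucleotides at a GC content of 62.2%, the Hoxb sequence 8 at 54.2%, and the Hoxc sequence 2 at 51.2%. Sites that recurred in the same lists thus ranged from a CpG-dense stretch to a CpG-poor one.

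The Hoxa7 start was the site found in all 4 lists. Hoxa7 (ENSMUSG00000038236.8, chr6:52214491-52221854, minus strand) encodes a homeodomain factor of the middle paralogues. Its peaks merged into 1 region of 353 bp (chr6:52221661-52222013). All 4 summits lay downstream of the start, at 95 and 30 bp with CDK6-WT and at 69 and 98 bp with CDK6-K43M, and spanned 68 bp. The strongest summit, in CDK6-K43M replicate 1, fell in the first exon, within the 5′ UTR. Beside it stands the consensus of CTCF, the architectural factor that separates chromatin domains, 24 to 35 bp from the summit. The match reads on the minus strand, and its 30-base surrounding on the plus strand is printed with the matching letters in capitals.
Hoxa7 start, chr6:52221800-52221829: agccacactGCCATCTCCTGGaattttctt
Of the 11 regions in the clusters 1 held this consensus, as did 6.36% of the 22975 regions present in at least 3 lists whose sequence was searched (4 more, on unplaced scaffolds, were left out). The search allowed no mismatch, so sequences close to the consensus were not counted. A match is a description of the letters and not evidence of occupancy by the factor.

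Peak strength at Hoxa7 was low in 3 of the 4 lists. MACS2 gives each peak a −log10 q, a measure of how unlikely its read number is under the local background, and a percentile states how a peak ranks by it within its own list. The Hoxa7 peak stood at percentile 13.6 in CDK6-WT replicate 1, 5.63 in CDK6-WT replicate 2, 51.8 in CDK6-K43M replicate 1 and 26.4 in CDK6-K43M replicate 2. The −log10 q values were 4.34 and 2.68 with CDK6-WT, and 9.36 and 4.30 with CDK6-K43M. These values rested on few reads. At the summit 16 and 10 reads were recovered in the CDK6-WT lists against a background of 3.09 and 1.73 reads. In the CDK6-K43M lists 23 and 11 reads were recovered against 2.46 and 1.57. The replicate 2 backgrounds, 1.73 and 1.57, are the lowest of any peak in their lists. The median peak of the lists had 20, 18, 23 and 15 reads in the same order of libraries. The fold enrichment at Hoxa7 was 4.13, 3.93, 6.56 and 4.67, where the median peak of each list had 6.62, 5.71, 6.29 and 5.45.

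Both CDK6-K43M percentiles at Hoxa7 lay above both CDK6-WT percentiles. Of the 7312 genes with a promoter peak in all 4 lists, 6.77% showed this order and 3.61% the opposite one. The mean percentile was 9.60 ± 5.61 (SD, n = 2) with CDK6-WT and 39.1 ± 18.0 with CDK6-K43M, a difference of 29.5. The exact two-sided permutation test over the 6 assignments of the libraries gave p = 0.333, which is the smallest p that 2 libraries against 2 can give. Within replicate numbers the difference was 38.2 for replicate 1 and 20.7 for replicate 2. Since Hoxa7 was the single Hox gene present in every list, the comparison of peak strength between the variants rests on this gene alone. Without CDK6-K43M replicate 1 the difference was 16.8, and at a minimum −log10 q of 5 no Hox promoter was bound in at least 3 lists.

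**Figure D1:**
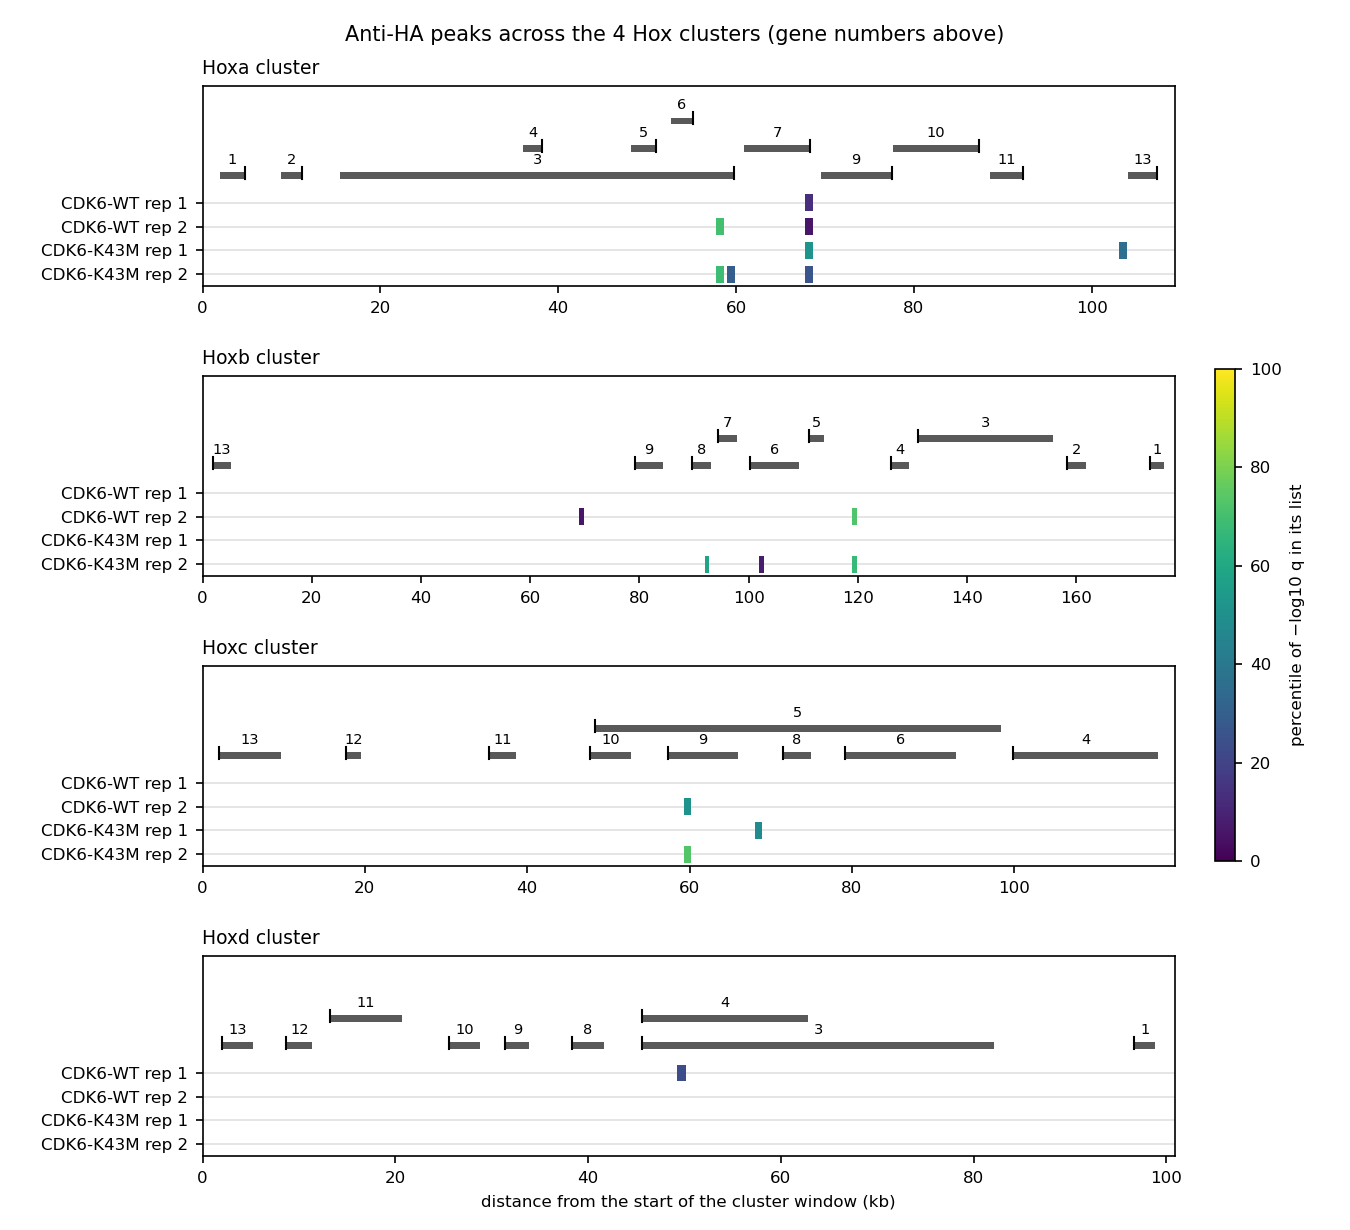
Peaks across the 4 Hox clusters, drawn by distance in kb from the start of each cluster window. Dark bars are gene bodies with their paralogue number above and a tick at the 5′ end, coloured blocks mark peak summits in each of the 4 lists (block width is not to scale), and colour gives the percentile of −log10 q within the list. The column of 4 blocks is the Hoxa7 start, and most of each cluster holds no block.

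The other Hox promoter peaks were each found in a single list. Hoxa3, a regulator of pharyngeal and neck development, had a peak in CDK6-K43M replicate 2 at percentile 29.4 with 12 reads at the summit. It lay 120 bp downstream of a Hoxa3 start (Hoxa region 2, chr6:52212874-52213110). The Hoxa3 record has 4 transcript starts and runs across Hoxa4, Hoxa5 and Hoxa6. The summit lay 341 bp from the 5′ end of this record, and the peak fell outside the promoter window of that end. With 5′ ends of gene records alone, the mean number of Hox promoters with a CDK6-K43M peak was 1.5, not 2. Hoxb7, a paralogue of Hoxa7, had a peak in CDK6-K43M replicate 2 at percentile 58.4 with 15 reads (Hoxb region 2, chr11:96284587-96284802). That peak lay 1949 bp upstream of the Hoxb7 5′ end and within the 3′ UTR of Hoxb8, so its place in the Hoxb7 promoter rests on the width of the window. Neither peak was found in CDK6-K43M replicate 1 or in a CDK6-WT list.

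Hoxa9, Hoxa10 and Hoxb4, known from leukaemia and blood stem cells, had no promoter peak in any list. The nearest summit to any start of Hoxa9 lay 4430 and 4365 bp away with CDK6-WT and 4404 and 4433 bp away with CDK6-K43M, and in all 4 lists it was the Hoxa7 summit. Hoxa10, which acts in myeloid and lymphoid progenitors, had its nearest summit at 11565, 11500, 11539 and 11568 bp. Hoxb4, known for expanding blood stem cells when overexpressed, had it at 242272 and 6611 bp with CDK6-WT and at 120690 and 6582 bp with CDK6-K43M. The replicate 2 distances for Hoxb4 are those to Hoxb region 4.

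By paralogue number, 1 of the 8 anterior genes (numbers 1 to 3) had a promoter peak in any list, as did 2 of the 15 middle genes (4 to 8) and 0 of the 16 posterior genes (9 to 13). By cluster, the count was 2 of 11 for Hoxa, 1 of 10 for Hoxb, 0 of 9 for Hoxc and 0 of 9 for Hoxd. The anterior gene was Hoxa3, counted through a start other than the 5′ end of its record. With 3 genes in all, these counts give no order between the groups.

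Many Hox genes had a CpG-rich start, yet few of these carried a peak. A start was called CpG-rich where the 1000 bp around the 5′ end of the gene had an observed to expected CpG ratio of at least 0.6 and a GC content of at least 50%. This held for 24 of the 39 Hox genes and for 44.4% of the 21938 protein-coding genes with sequence. The ratio had a median of 0.678 over the Hox genes, from 0.181 at Hoxb2 to 0.996 at Hoxa5, and a median of 0.552 over all genes. Of the 9740 genes with a CpG-rich start, 68.3% had a promoter bound by both variants, meaning that it overlapped a region with a peak in at least 3 of the 4 lists, and 19.8% had no promoter peak in any list. Of the 24 CpG-rich Hox genes 1 (4.17%) was bound by both and 21 (87.5%) had no peak. The 15 Hox genes without a CpG-rich start had none. Over all 39 Hox genes the share bound by both was 2.56%, with 41.3% over all protein-coding genes.

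**Figure D2:**
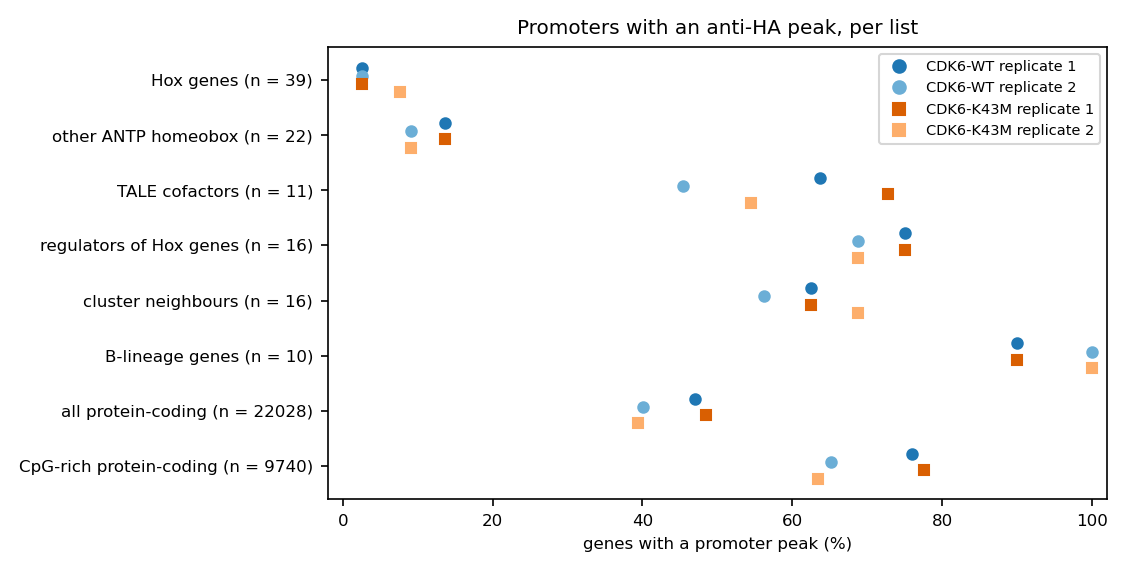
Share of genes with a promoter peak in each list (x axis, percent), with 1 point per library and gene list, circles for CDK6-WT and squares for CDK6-K43M. The Hox genes sit at 2.56% in 3 lists and at 7.69% in CDK6-K43M replicate 2, below the points of all protein-coding genes and of CpG-rich genes in every list.

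The distance from Hox starts to the nearest summit was large in every list. Its median over the 39 genes was 63442 bp in CDK6-WT replicate 1, 20063 bp in CDK6-WT replicate 2, 63468 bp in CDK6-K43M replicate 1 and 15799 bp in CDK6-K43M replicate 2. Over all protein-coding genes the medians were 3156, 7755, 2030 and 8001 bp, and over CpG-rich genes 83, 155, 82 and 181 bp. Neighbouring Hox genes share their nearest summit, so the 39 distances are not independent. The largest distances were in CDK6-WT replicate 1, where no peak fell in the Hoxb or Hoxc cluster and Hoxb1 was 289757 bp from a summit. The replicate 2 lists gave the shorter Hox medians with either variant, whereas over all genes the replicate 1 lists gave the shorter ones.

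**Figure D3:**
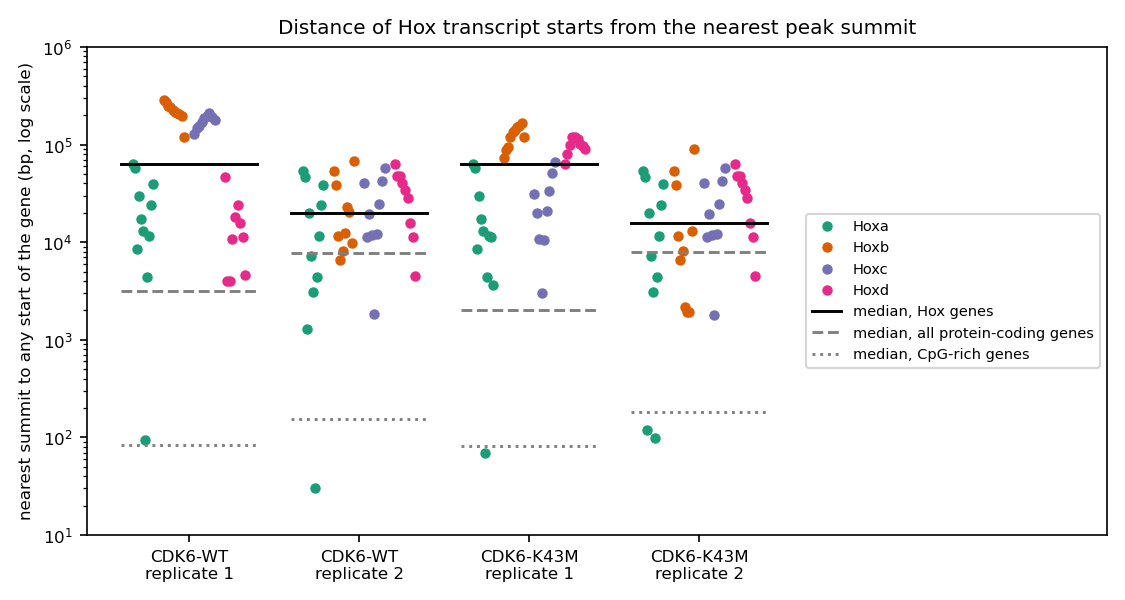
Distance in bp (log axis) from any transcript start of each Hox gene to the nearest peak summit, by list, with 1 point per gene coloured by cluster. Lines give the median over the 39 Hox genes (solid), all protein-coding genes (dashed) and CpG-rich genes (dotted); in each list the solid line lies above the other lines.

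The clusters held 2 to 7 peaks per list. Each was taken from 2000 bp before its first to 2000 bp after its last Hox gene, which gave chr6:52153590-52262880 for Hoxa, chr11:96192316-96370256 for Hoxb, chr15:102919103-103038852 for Hoxc and chr2:74666310-74767142 for Hoxd. CDK6-WT replicate 1 had 2 peaks in them, CDK6-WT replicate 2 had 5, CDK6-K43M replicate 1 had 3 and CDK6-K43M replicate 2 had 7. Per 100 kb this was 0.394, 0.985, 0.591 and 1.38 peaks. The whole genome held 1.29, 1.27, 1.46 and 1.37 peaks per 100 kb, and the 250 kb to each side of the clusters held 1.1, 1.85, 1.4 and 2.2. In CDK6-K43M replicate 2 the density in the clusters was close to that of the genome. In all 4 lists the clusters were less dense than these 250 kb flanks taken whole. Near the clusters the flanks were sparse too. By coordinate, the 50 kb before them held 0.5, 1.5, 0 and 1.5 peaks per 100 kb. The 50 kb after them held 0, 0.5, 0 and 1. Counted as merged regions, the density was 2.17 per 100 kb in the clusters and 2.08 over the genome. No test of these densities was made, and each rests on 7 peaks or fewer.

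The variants did not differ in these counts beyond the spread between libraries. The number of cluster peaks was 3.5 ± 2.12 (SD, n = 2) with CDK6-WT and 5 ± 2.83 with CDK6-K43M, a difference of 1.5 (exact two-sided permutation p = 0.667). Within replicate numbers the difference was 1 for replicate 1 and 2 for replicate 2. The number of Hox promoters with a peak was 1 ± 0 with CDK6-WT and 2.00 ± 1.41 with CDK6-K43M (difference 1, exact two-sided permutation p = 1), with a difference of 0 for replicate 1 and 2 for replicate 2. With 2 libraries per variant no difference of any size could have passed a threshold of 0.05, since the smallest possible p is 0.333. Single libraries decided both values: without CDK6-K43M replicate 2 the differences were −0.5 cluster peaks and 0 promoters, leaving out CDK6-K43M replicate 1 gave 3.5 peaks and 2 promoters, and the difference in cluster peaks was 0 without CDK6-WT replicate 1 and 3 without CDK6-WT replicate 2.

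The peaks fell into 11 regions, of which 4 were in the Hoxa cluster, 4 in Hoxb, 2 in Hoxc and 1 in Hoxd. The Hoxa7 region was bound by both variants (9.09% of the 11, with 40.5% of the 56748 regions of the genome). A further 3 occurred in the replicate 2 list of each variant but in no replicate 1 list, and the remaining 7 (63.6%, with 32.6% of all regions) in a single list. None of the 11 was unique to a variant, that is, present in both of its lists and in neither list of the other. Over the genome 6263 regions occurred in the replicate 2 lists alone and 7357 in the replicate 1 lists alone, while 204 were unique to CDK6-WT and 714 to CDK6-K43M.

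The 3 recurrent regions outside promoters held the strongest Hox peaks of their lists. Hoxa region 1 (chr6:52211665-52212021), whose CpG-dense sequence is given above, lay in the body of Hoxa3 and of the non-coding gene Hoxaas3, 1299 bp downstream of the nearest Hoxa3 start and outside annotated exons. It stood at percentile 70.2 in CDK6-WT replicate 2 with 20 reads and at 68.9 in CDK6-K43M replicate 2 with 17 reads, with summits 21 bp apart. Hoxb region 4 (chr11:96311535-96311871) lay between the genes Hoxb5 and Hoxb4, 6611 bp upstream of Hoxb4. It stood at percentiles 72.6 and 67.2 with 21 and 17 reads, and its summits were 29 bp apart. Hoxc region 1 (chr15:102978680-102979024), in the body of Hoxc9 and 1804 bp downstream of a Hoxc9 start, stood at percentiles 50.1 and 72.7 with 16 and 18 reads, and its summits were 30 bp apart. In the replicate 1 lists the same positions had no peak with either variant, so these sites followed the replicate number and not the variant. The labels do not say what the number marks.

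Each of the 7 other regions rested on 9 to 21 reads in 1 list. Besides the peaks at Hoxa3 and Hoxb7, CDK6-K43M replicate 1 had Hoxa region 4 (chr6:52257046-52257247, percentile 35.8, 17 reads), 3669 bp from the nearest Hoxa13 start, and Hoxc region 2 (chr15:102987501-102987694, percentile 47.7, 21 reads), 3046 bp upstream of Hoxc8. Hoxb region 3 (chr11:96294506-96294693, percentile 7.80, 9 reads) was found in CDK6-K43M replicate 2 within the body of Hoxb6. Hoxb region 1 (chr11:96261606-96261770, percentile 5.63, 10 reads) was found in CDK6-WT replicate 2 within the long non-coding RNA gene Gm53, 130 bp downstream of an internal transcript start. Hoxd region 1 (chr2:74715892-74716182, percentile 23.3, 13 reads) was the single peak of the Hoxd cluster, in CDK6-WT replicate 1, 26 bp from a transcript start of the antisense gene Hoxd3os1. The clusters overlap 46 genes that do not code for protein, and Gm53 and Hoxd3os1 were those with a peak in the promoter window. The 7 microRNA genes among them had none.

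**Figure D4:**
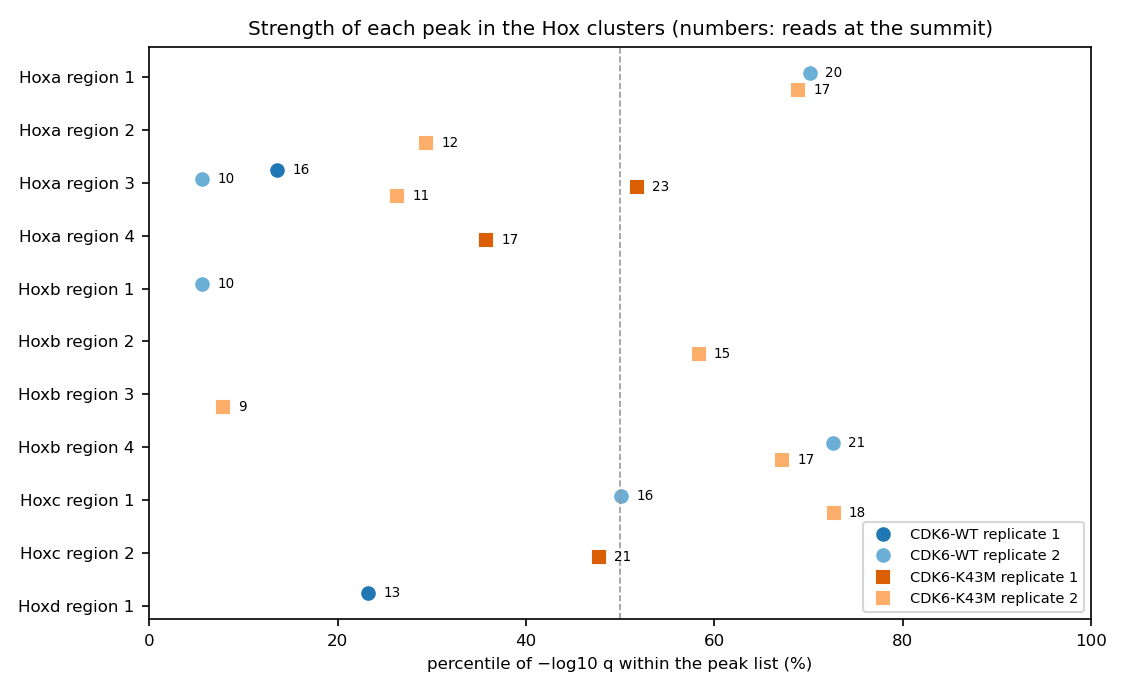
Percentile of −log10 q within its own list (x axis) for each of the 17 peaks in the 11 regions (y axis), coloured by library, with the number of reads at the summit beside each point. The dashed line is the median of a list, and no point lies above percentile 75.

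The 17 peaks were of low to middling strength. The highest percentile reached was 23.3 in CDK6-WT replicate 1, 72.6 in CDK6-WT replicate 2, 51.8 in CDK6-K43M replicate 1 and 72.7 in CDK6-K43M replicate 2. The shallowest peaks that the lists contain anywhere had 8, 8, 9 and 7 reads at the summit, so a Hox site with fewer reads would not have been listed. A missing peak therefore says that no binding was detectable at this depth, not that CDK6 was absent.

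Motif counts at the Hox regions are given beside the share of all regions in at least 3 lists, and with 11 regions they do not set the Hox sites apart. Within 100 bp of each summit, on both strands, no Hox region held the ETS motif CCGGAAGT, the SP1 motif GGGGCGGGG or the NRF-1 core CGCATGCG, which were present in 3.86%, 6.02% and 1.68% of the regions found in at least 3 lists. The NFY motif CCAAT was found in 3 of 11 Hox regions and in 19.7% of those regions, the RUNX motif TGTGGT in 2 and in 20.7%, and the MEIS motif TGACAG in 2 and in 16.0%. The PBX-HOX composite TGATTGAT and its variant TGATTTAT were in no Hox region and in 0.17% and 0.305% of the others. None of these motifs was in the 3 sequences printed above or in the window at Hoxa7. The median GC content was 54.7% over the Hox windows and 54.2% over the regions in at least 3 lists. The median CpG ratio was 0.650 and 0.377. Of the 11 Hox regions 1 was itself in at least 3 lists, so the compared sets were chosen at unlike thresholds.

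Genes of HOX partners and regulators had promoter peaks at shares closer to those of other genes, 41.3% of which were bound by both variants over all protein-coding genes and 68.3% over those with a CpG-rich start. HOX proteins bind DNA with cofactors of the TALE class of homeodomain proteins, and 6 of 11 TALE genes (54.5%) were bound by both variants. Pknox1 stood at percentiles 50.1 and 77.8 with CDK6-WT and 87.5 and 91.6 with CDK6-K43M. Pbx3 stood at 52.6, 10.2, 88.3 and 16.2 in the same order, and Meis1 and Pknox2 had no promoter peak. Of 16 genes that maintain or switch Hox expression, 11 (68.8%) were bound by both. The gene of the histone methyltransferase MLL1, Kmt2a, stood at percentiles 99.3, 88.8, 99.4 and 79.7, and Men1, which encodes the MLL1 partner menin, at 99.3, 96.1, 98.8 and 95.2. Dot1l, the H3K79 methyltransferase gene, stood at 98.1, 93.2, 98.5 and 62.8, and Ctcf at 97.8, 84.4, 98.5 and 88.1. Cdx1, Cdx2 and Cdx4, homeobox activators of Hox genes, had no promoter peak. Kdm6a and Kdm6b were not bound by both either. Each had a promoter peak in 1 list, Kdm6a at percentile 28.5 in CDK6-K43M replicate 1 and Kdm6b at 18.7 in CDK6-WT replicate 1. Of 7 genes known as targets or partners of HOX and TALE proteins in leukaemia, 6 were bound by both, among them Myb at percentiles 78.4, 87.1, 76.7 and 81.3.

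Of 22 homeobox genes of the same class (ANTP) outside the clusters, 20 had a CpG-rich start, 2 were bound by both (Dlx1 and Hhex, 9.09%) and 19 had no promoter peak. Of all CpG-rich genes, 68.3% were bound by both and 19.8% had no promoter peak. Hhex, a homeobox gene used in early B cell development, stood at percentiles 83.1, 70.2, 86.1 and 75.9. Of 16 genes on either side of the clusters, 10 (62.5%) were bound by both variants and 5 had no promoter peak, where the shares over all genes were 41.3% and 48.2%. These lists were compared with the Hox genes by their counts alone, without a test. Beyond the Hoxd cluster, Lnpk stood at percentiles 91.3, 84.2, 90.6 and 84.4 and Mtx2 at 75.2, 73.4, 64.8 and 44.9, and beyond the Hoxa cluster Hibadh stood at 97.1, 86.1, 93.0 and 91.2. The 5 without a promoter peak were Evx1 and Evx2, the homeobox genes at the ends of the Hoxa and Hoxd clusters, and Calcoco2, Ttll6 and Skap1 beside the Hoxb cluster. The labelled cell type was checked by promoter peaks alone, which are not expression: 9 of 10 B-lineage genes, 1 of 6 T-lineage genes, 0 of 5 myeloid and 0 of 3 erythroid genes were bound by both.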

How the data were processed

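Anti-HA ChIP-seq peak lists of 4 libraries were used, grouped by variant and replicate number as titled. The authors trimmed reads (Trimmomatic 0.36), aligned them to mm10 (bwa-mem 0.7.15), removed blacklisted regions (bedtools), filtered with samtools 1.3.1 and called peaks per library with MACS2 2.1.0 at default settings. The deposited lists give positions, fold enrichment (a ratio), p-value and q-value as −log10, a score made from the q-value, and the summit offset (other). They hold 35189, 34729, 39797 and 37304 peaks (CDK6-WT replicates 1 and 2, CDK6-K43M replicates 1 and 2) and no read totals, so the depth of the libraries is unknown.

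Reads at each summit were recovered from the fold enrichment and the p-value, and 100% of peaks gave whole reads within 0.005. The recovery was tested on simulated data. Peaks overlapping by 1 bp were merged, where the authors used DiffBind. Annotation was GENCODE M21, whereas the authors used M13, both on mm10, and sequences came from RefSeq GRCm38. Software was pysam 0.24.0, scipy 1.17.1, pandas 2.3.3, numpy 2.4.6 and matplotlib 3.10.9 under Python 3.11.15. For differences between variants an exact permutation test (two-sided) was used.

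Members, gene lists, motifs and alternatives were chosen with earlier results of these data known. Values are given for Hox genes with a promoter peak in at least 3 lists or in both lists of one variant alone, and for Hoxa9, Hoxa10 and Hoxb4 whatever their values. Regions are named up to 3 per cluster, by number of lists and then by mean percentile. Hoxa3, Hoxb7 and the remaining 2 regions were named after their values were seen, so that every site is accounted for. Alternatives were stricter peak thresholds, lists of equal length, other promoter and cluster windows, other merging rules, leaving out each library, a block for the replicate number, and percentiles of fold enrichment.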

Additional observations from a re-analysis of the deposited data

How the results depend on the processing

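The 5 results (both counts of sites bound by both variants, both differences in counts, and the difference in percentile at Hoxa7) were recomputed under the alternatives, which gave 58 values. Of these, 44 kept the direction of the difference, or for a count stayed within 1.5 times. Some of the 44 could not have come out otherwise and say nothing on stability. The block for the replicate number leaves each mean difference unchanged. Hoxa7 was in all 4 lists, so requiring all 4 or leaving out 1 library could not change the counts bound by both. Nor could leaving out 1 library turn the difference in percentile, given the order of the percentiles at Hoxa7. The p-values played no part in this tally, since none could fall below 0.333 with these libraries. Stricter thresholds removed the sites bound by both. At a minimum −log10 q of 5, of 10, or with the top 10000 peaks per list, 0 Hox promoters and 0 cluster regions were bound by both variants, and the percentile at Hoxa7 could not be compared, since Hoxa7 no longer had a peak in all 4 lists. The difference in Hox promoters with a peak was 0 at a minimum of 10 and 0 with the top 10000 peaks, and the difference in cluster peaks turned to −0.5 under both. With clusters extended by 50000 bp, 2 regions were bound by both. Leaving out each library in turn gave differences of 0 to 2 Hox promoters and of −0.5 to 3.5 cluster peaks. The value was 0 promoters and −0.5 peaks without CDK6-K43M replicate 2, 2 promoters and 3.5 peaks without CDK6-K43M replicate 1, 0 peaks without CDK6-WT replicate 1 and 3 peaks without CDK6-WT replicate 2. The difference in percentile at Hoxa7 was 16.8 to 42.2 (16.8 without CDK6-K43M replicate 1, 42.2 without CDK6-K43M replicate 2). Both counts of sites bound by both stayed at 1, as they had to with Hoxa7 in all 4 lists. The cause of these shifts was not tested, apart from the smaller number of peaks under the stricter thresholds. The Hox peaks rested on 9 to 23 reads at the summit, and weaker sites than the lists hold could not be examined.

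With the replicate number as a block the differences were 1 promoter (exact sign-flip permutation p = 1), 1.5 cluster peaks (p = 0.5) and 29.5 percentile points at Hoxa7 (p = 0.5), where 0.5 is the smallest p that 2 pairs can give in this exact permutation test. The labels do not say what a replicate number marks, and 2 pairs are too few to decide from the data whether it pairs the libraries, although over the genome 7357 and 6263 regions occurred in the lists of a single replicate number and 204 and 714 in those of a single variant. Neither test can reach 0.05 with these libraries, so the block could not change a call.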

Other observations

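Outside the clusters, 6 further regions lay within 50 kb of their ends, 3 of them in 1 list, 2 in 2 lists and 1 in 3 lists. The strongest (chr2:74642361-74643110) lay beyond Evx2 at the posterior end of the Hoxd cluster, 16476 bp from the Evx2 start. It occurred in both replicate 2 lists, at percentile 96.3 with 39 reads in CDK6-WT replicate 2 and at percentile 96.4 with 36 reads in CDK6-K43M replicate 2, and in neither replicate 1 list. No peak inside a Hox cluster reached this percentile. A region between Evx2 and Hoxd13 (chr2:74663272-74663978), 4211 bp upstream of Evx2, occurred in 3 lists, at percentile 25.3 in CDK6-WT replicate 1, 62.7 in CDK6-WT replicate 2 and 47.1 in CDK6-K43M replicate 2, with 15, 19 and 14 reads. Hoxd13, the most posterior gene of its cluster and a regulator of digit formation, thus had its nearest summit at 4591 and 4542 bp with CDK6-WT and 4552 bp in CDK6-K43M replicate 2, and at 89318 bp in CDK6-K43M replicate 1. Upstream of Evx1, beyond the Hoxa cluster, a region (chr6:52303527-52303772) occurred in both replicate 2 lists at percentiles 10.2 and 62.3. As with the 3 recurrent regions inside the clusters, regions in 2 lists near the clusters were shared by replicate number and not by variant.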
